A study of Mus musculus with 29 samples.

Results

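The 7 transcription factor genes described here, Gata2, Tal1, Lyl1, Lmo2, Runx1, Erg and Fli1, are known together as the heptad of blood stem cells. They were taken by gene symbol from a table of 30025 genes, and all 7 were found in it under these names. RNA was sequenced from 3 populations of mouse bone marrow cells, sorted from the compartment that carries c-Kit and Sca-1 and lacks lineage markers, CD41 and CD48. CD150hi HSC had high CD150, CD150lo HSC had low CD150 and CD150neg MPP had none. The donors were 5 WT mice and 5 5A3+/del mice of strain C57BL/6J. WT mice, aged 12.42 to 13.28 weeks, had both copies of the interval. 5A3+/del mice, aged 12.42 to 13.85 weeks, carried a heterozygous germ line deletion of the 5A3 interval, the mouse counterpart of the human 7q22 region, so that every cell of the animal carried it. Each group held 5 libraries, 1 per mouse, except 5A3+/del CD150neg MPP, which held 4.

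The heptad factors belong to different protein families and often occupy the same enhancers in blood stem and progenitor cells. GATA2 is a zinc finger protein, TAL1 and LYL1 are basic helix-loop-helix proteins that pair with E proteins, and LMO2 is a LIM-only protein that does not bind DNA itself but joins TAL1 or LYL1 to GATA2. RUNX1 binds with its partner CBFB, and ERG and FLI1 are members of the ETS family. Loss of Gata2, Tal1, Lmo2 or Runx1 blocks the formation of blood stem cells in the embryo, and translocations or mutations of several of these genes occur in human leukemia.

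Libraries held 21228905 to 38798570 fragments with a gene (median 26967153), as recovered from the FPKM values. The 7 genes received between 1509 (Lyl1) and 27829 (Lmo2) fragments in any library. The RNA was amplified, so these numbers do not give the count of separate molecules. The labels were checked on genes outside the heptad. Slamf1, which encodes CD150, averaged 14.4, 1.62 and 0.146 FPKM (fragments for each kilobase of exon, relative to the library total) in WT CD150hi HSC, CD150lo HSC and CD150neg MPP. Mll5, a gene of the deleted interval, was lower in 5A3+/del mice in all 3 populations, by 0.70 to 0.98 on the log2 scale (adjusted p between 0.000234 and 0.00693). Every CD150hi HSC library was above every CD150lo HSC and CD150neg MPP library in Slamf1, which at 9.97 to 22.6 FPKM in 5A3+/del mice followed the labels as in WT mice. Because the material was bulk RNA, fewer cells that express a gene and less RNA per cell cannot be told apart.

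In the mm9 build the genes lie at chr6:88143885-88157024 (Gata2), chr4:114729031-114744360 (Tal1), chr8:87225356-87228614 (Lyl1), chr2:103798143-103822035 (Lmo2), chr16:92601712-92826311 (Runx1), chr16:95580776-95808200 (Erg) and chr9:32229793-32348974 (Fli1). The first 4 are on the plus strand and the last 3 on the minus strand, and none lies on chromosome 5, which carries the deletion. Whether the counting used strand is not given in the sources used here. Lyl1 shares 4 bases of exon with Nfix and Runx1 shares 106 bases with Gm16801, both on the opposite strand, which is 0.2% and 1.4% of the exon length of the member.

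All 7 genes were strongly expressed in every population, and Lmo2 was far above the others. Averaged over the 29 libraries, Lmo2 stood at 355 FPKM, Erg at 86.1, Gata2 at 67.7, Fli1 at 53.5, Lyl1 at 46.2, Tal1 at 38.6 and Runx1 at 28.5. Of the 15409 genes that passed the filter on low values, at least 90.0% were lower than Runx1 and 99.4% were lower than Lmo2. FPKM is scaled to exon length, so the order of genes rests on the annotated lengths. Runx1, with 7798 bases of exon, received a median of 5991 fragments, and Tal1, with 4379 bases, received 4449. Whether the transcripts present have these lengths, and whether amplification differed between genes, was not tested. Lmo2 was the highest member in all 29 libraries, and its lowest library in each population lay above the highest library of the next gene.

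The order below Lmo2 changed with the population, and the gene that moved was Gata2. In the 10 CD150hi HSC libraries the mean levels ran from Gata2 (98.8 FPKM) to Erg (86.4), Fli1 (59.6), Lyl1 (43.6), Tal1 (43.5) and Runx1 (31.2). Gata2 was above Erg in 8 of these 10 libraries. The ranges overlapped in 5A3+/del mice, but in WT mice Gata2 (98.2 to 109 FPKM) lay above Erg (70.2 to 89.9) throughout. Lyl1 and Tal1 could not be ordered, with Lyl1 higher in 6 of 10. In CD150lo HSC, Erg (79.1 FPKM) came before Gata2 (60.7), Fli1 (48.4), Lyl1 (43.7), Tal1 (37.9) and Runx1 (26.8). Erg was above Gata2 in 7 of 10 libraries and Gata2 above Fli1 in 6 of 10, so that these neighbours did not differ beyond their spread. In the 9 CD150neg MPP libraries, Erg (93.4 FPKM) was above Fli1 (52.3) without overlap. Fli1 and Lyl1 (51.8) could not be ordered there, and Gata2 (41.1) was below Lyl1 in 9 of 9 libraries, followed by Tal1 (33.9) and Runx1 (27.4).

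**Figure D1:**
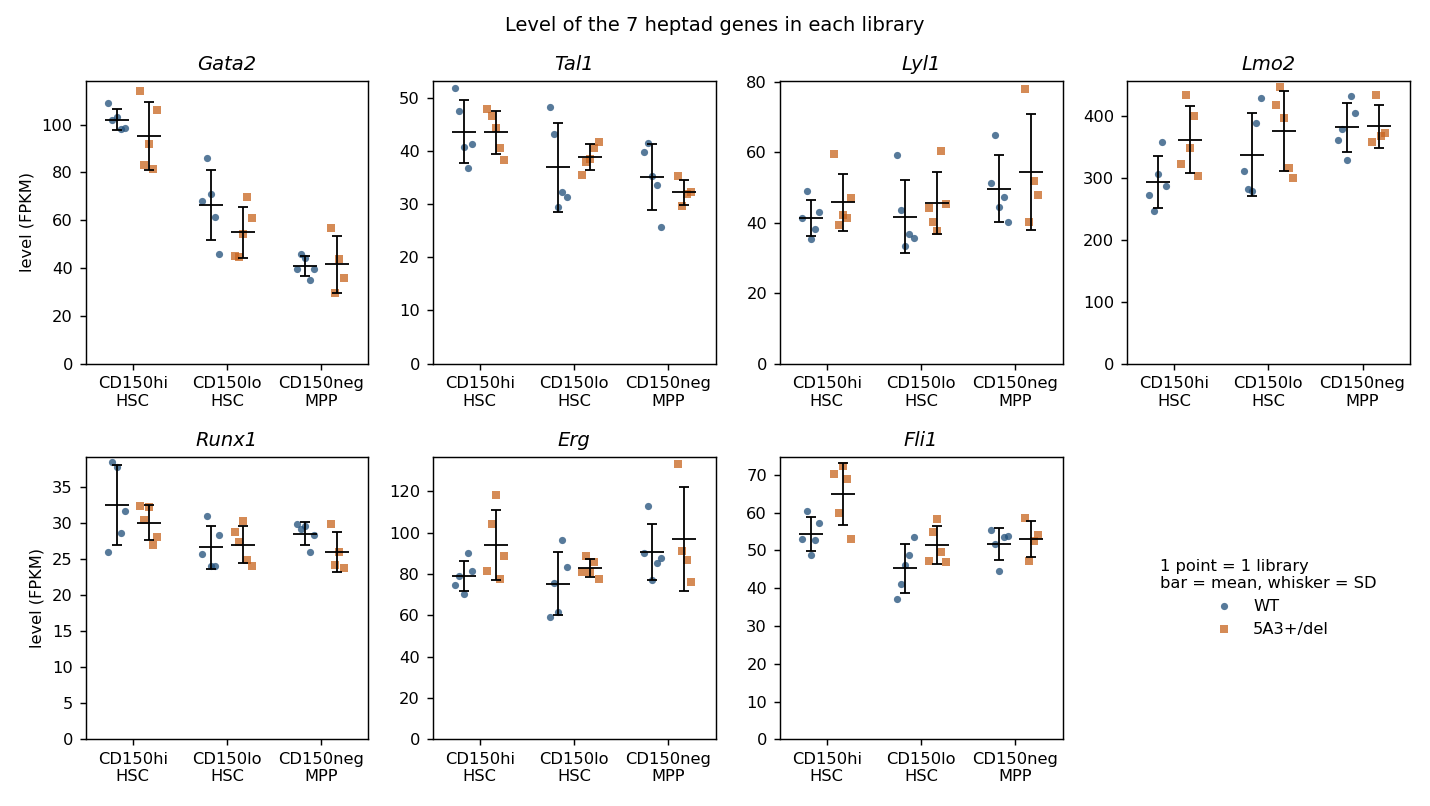
Level of each heptad gene in FPKM (y axis, from 0, with its own scale in each panel) in the 3 populations (x axis). Each point is 1 library of a WT (circle) or 5A3+/del (square) mouse, the bar is the group mean and the whisker the SD. Gata2 steps down from 102 FPKM in WT CD150hi HSC to 40.8 in WT CD150neg MPP, while the other genes vary by at most 1.43 times between group means.

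The summed level of the 7 genes stayed within a narrow range, from a group mean of 631 FPKM (SD 66.9, n = 5) in WT CD150lo HSC to 735 FPKM (SD 47.5, n = 5) in 5A3+/del CD150hi HSC. Within that sum, Gata2 made up 15.9% ± 1.27 (SD, n = 5) in WT CD150hi HSC, 10.8% ± 3.14 in WT CD150lo HSC and 6.05% ± 0.874 in WT CD150neg MPP. Its shares in 5A3+/del mice were 13.1% ± 2.57, 8.24% ± 2.15 and 6.00% ± 1.45 in the same order. Lmo2 made up between 45.3% (WT CD150hi HSC) and 56.2% (WT CD150neg MPP) of the sum.

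The comparison of populations asks how the heptad changes as cells lose CD150. Differences were tested with limma on normalized log2 values across the 15409 genes, and a gene was called at a Benjamini-Hochberg adjusted p below 0.05. Between CD150hi HSC and CD150neg MPP, 2 of 7 members were called in WT mice and 2 of 7 in 5A3+/del mice, against 10.0% and 6.16% of all genes tested. Between CD150hi HSC and CD150lo HSC, 1 member was called in each genotype, against 3.53% (WT) and 3.18% (5A3+/del) of all genes. Between CD150lo HSC and CD150neg MPP none was called in either genotype, against 0.188% and 0.0389% of all genes. There, 1 (WT) and 2 (5A3+/del) members had an unadjusted p under 0.05, against 8.75% and 4.95% of all genes. The median difference of the 7 members between CD150hi HSC and CD150neg MPP was 0.10 in WT and 0.26 in 5A3+/del mice on the log2 scale, beside -0.01 and 0.00 over all genes. Gata2 was a call in each comparison that had one, Lmo2 was the other call in WT mice and Tal1 the other in 5A3+/del mice.

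**Figure D2:**
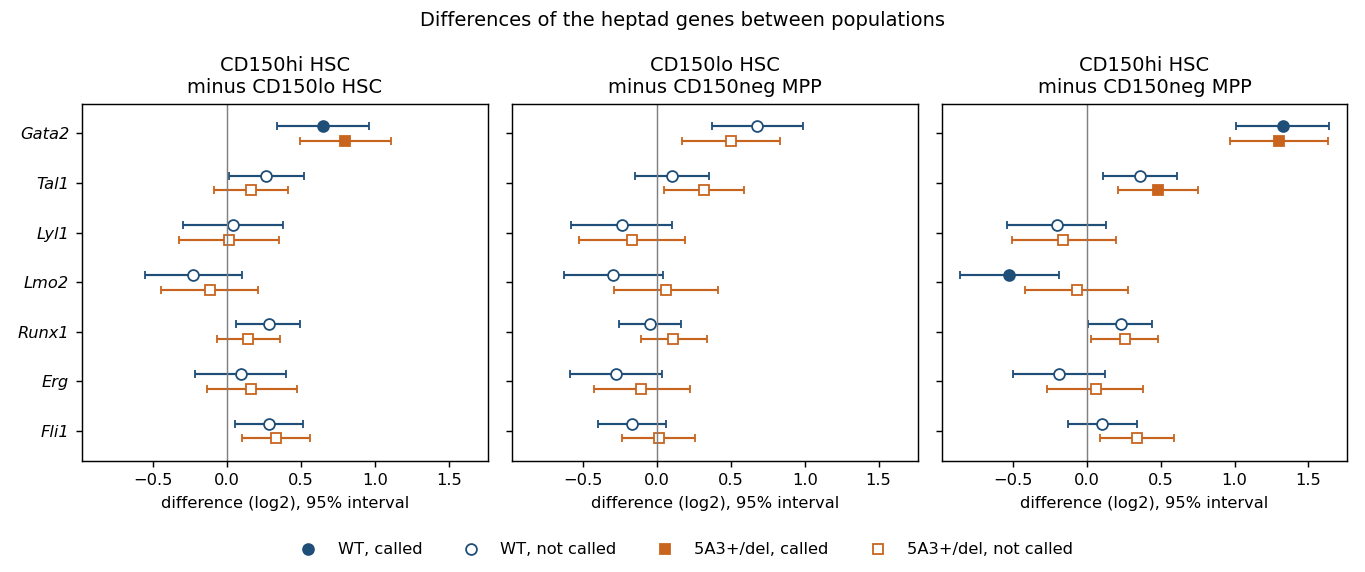
Differences between populations for each heptad gene (x axis, log2 of normalized FPKM + 1, with the same scale in each panel), in WT (circles) and 5A3+/del mice (squares). Whiskers are 95% intervals from the limma fit, and filled symbols passed the adjusted threshold. Gata2 lies at 1.33 and 1.30 in the CD150hi HSC minus CD150neg MPP panel and at 0.65 and 0.80 in the CD150hi HSC minus CD150lo HSC panel.

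Gata2 encodes the zinc finger factor that maintains adult blood stem cells. In CD150hi HSC its level was 109, 102, 103, 98.2 and 98.7 FPKM in the 5 WT mice and 114, 83.1, 91.7, 81.4 and 106 FPKM in the 5 5A3+/del mice. In CD150lo HSC it was 68.1, 86.1, 71.0, 61.2 and 46.0 FPKM in WT mice and 45.2, 44.7, 54.1, 69.6 and 61.0 FPKM in 5A3+/del mice. In CD150neg MPP it was 39.5, 45.7, 44.2, 35.0 and 39.6 FPKM in WT mice and 56.9, 29.4, 44.0 and 35.7 FPKM in 5A3+/del mice. Every CD150hi HSC library was thus above every CD150lo HSC and CD150neg MPP library of its genotype, and in WT mice CD150lo HSC and CD150neg MPP did not overlap either. Gata2 was the only member without overlap in all 3 WT comparisons, which held for 3.83% (CD150hi against CD150lo HSC), 2.05% (CD150lo HSC against CD150neg MPP) and 8.44% (CD150hi HSC against CD150neg MPP) of all genes in turn. In 5A3+/del mice 4.10% of all genes separated CD150hi from CD150lo HSC as Gata2 did.

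Between CD150hi HSC and CD150neg MPP, Gata2 was 2.51-fold higher in WT mice (log2 difference 1.33, SE 0.15, 95% interval 1.01 to 1.64, adjusted p = 6.41e-07). In 5A3+/del mice it was 2.46-fold higher (log2 difference 1.30, SE 0.16, 95% interval 0.97 to 1.63, adjusted p = 2.86e-06). Both calls held under every alternative tried, with adjusted p of at most 8e-05 in WT and 0.00512 in 5A3+/del mice. Against CD150lo HSC, Gata2 was 1.57-fold higher in CD150hi HSC of WT mice (0.65, SE 0.15, adjusted p = 0.0121) and 1.74-fold higher in 5A3+/del mice (0.80, SE 0.15, adjusted p = 0.00159). The WT call was lost without WT mouse 1 (adjusted p = 0.0641), 4 (0.0675) or 5 (0.0843), and when only the compared groups were fitted (0.0593), whereas the 5A3+/del call held under every alternative.

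The step from CD150lo HSC to CD150neg MPP was of a similar size in WT mice (log2 difference 0.68, SE 0.15, adjusted p = 0.0554) but did not pass. With the mouse as a random block it passed (adjusted p = 0.0311). The block used the same within-mouse correlation for all genes (0.0793) and is not a paired test. The step also passed without WT mouse 5 (0.0286), without 5A3+/del mouse 1 (0.0347) or 2 (0.0474) and with a trend in the variance prior (0.0268). The 5A3+/del difference was 0.50 (SE 0.16, adjusted p = 0.699). Within single animals, Gata2 was highest in CD150hi HSC and lowest in CD150neg MPP in 8 of the 9 mice with 3 libraries. The exception was 5A3+/del mouse 1, at 45.2 FPKM in CD150lo HSC and 56.9 FPKM in CD150neg MPP. For this and the later counts of mice, the share of all genes with the same pattern was not computed.

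Genes of the mast cell, megakaryocyte and erythroid lineages, which also use Gata2 or its relatives, were read beside this result. The summed level of 5 mast cell markers was between 0.0259 and 4.73 FPKM in every library, with Mcpt8 listed at 0 in all WT and 5A3+/del CD150hi HSC libraries. The summed level of 5 megakaryocyte markers ranged from 22.7 to 52.6 FPKM in WT CD150hi HSC and from 27.0 to 58.5 FPKM in WT CD150neg MPP, and that of 5 erythroid markers from 7.61 to 12.7 FPKM and from 5.78 to 27.3 FPKM. In 5A3+/del mice the megakaryocyte sum ranged from 23.7 to 42.6 and from 25.7 to 43.2 FPKM, and the erythroid sum from 4.91 to 16.8 and from 6.81 to 16.4 FPKM. None of these sums was higher in CD150hi HSC without overlap. Of the megakaryocyte markers, Itga2b alone was, in 5A3+/del mice (2.43 to 8.53 against 1.28 to 2.41 FPKM in CD150neg MPP). Its WT ranges overlapped (1.54 to 3.43 and 1.16 to 2.89 FPKM). A relation to Gata2 was not tested.

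The promoter sequence of Gata2 is shown because it is the member that changed most, and those of Tal1 and Lyl1 because the balance of this related pair shifted between populations (given further on). Each is the 250 bases before a RefSeq start in GRCm38.p6, on the strand of the gene. Capitals mark matches on either strand to motifs of GATA factors (AGATAA or TGATAA or AGATAG or TGATAG), to the E-box of TAL1 and LYL1 (CAGATG), or to motifs of ETS (CGGAAG or AGGAAG) or RUNX factors (TGTGGT or TGCGGT). The window of Gata2 lies at chr6:88193641-88193890, Tal1 at chr4:115056176-115056425 and Lyl1 at chr8:84701207-84701456, all on the plus strand.
Gata2: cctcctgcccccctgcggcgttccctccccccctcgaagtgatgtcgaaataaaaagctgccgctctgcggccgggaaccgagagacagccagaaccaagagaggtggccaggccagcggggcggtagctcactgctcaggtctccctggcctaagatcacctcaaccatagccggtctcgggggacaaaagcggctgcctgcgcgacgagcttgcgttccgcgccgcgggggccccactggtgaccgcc
Tal1: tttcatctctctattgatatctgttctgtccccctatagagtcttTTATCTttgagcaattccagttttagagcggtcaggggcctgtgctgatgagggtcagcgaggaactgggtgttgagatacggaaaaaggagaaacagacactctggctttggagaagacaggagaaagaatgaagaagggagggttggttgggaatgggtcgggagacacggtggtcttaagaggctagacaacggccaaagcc
Lyl1: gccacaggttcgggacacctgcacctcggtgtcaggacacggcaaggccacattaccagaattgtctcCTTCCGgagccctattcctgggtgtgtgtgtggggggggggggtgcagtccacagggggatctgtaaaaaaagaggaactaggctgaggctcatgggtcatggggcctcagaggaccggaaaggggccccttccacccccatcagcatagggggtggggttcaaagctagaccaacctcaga
The Gata2 window held none of the 4 kinds of motif, and neither did the window of its other listed start (chr6:88198414-88198663). Tal1 held a GATA match on the reverse strand whose first base lies at -205 from the start, and Lyl1 an ETS match on the reverse strand with its first base at -182. The window of the other Tal1 start (chr4:115057561-115057810) held no motif. No match overlapped another. Among 32851 windows of this length before RefSeq starts, 26.5% held a GATA, 14.4% the E-box, 39.2% an ETS and 18.6% a RUNX motif, and 30.6% held none. RefSeq promoters of 5 of the 7 members, with 10 starts, were matched.

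Tal1 encodes the helix-loop-helix factor at the core of the complex with LMO2. Its level in CD150hi HSC was 51.8, 47.5, 40.7, 36.8 and 41.3 FPKM in WT mice and 47.8, 46.5, 44.2, 40.5 and 38.3 FPKM in 5A3+/del mice. In CD150lo HSC it was 48.3, 43.1, 29.5, 32.3 and 31.3 FPKM in WT and 35.4, 37.9, 38.4, 40.6 and 41.7 FPKM in 5A3+/del mice. In CD150neg MPP it was 39.8, 41.4, 35.2, 33.6 and 25.7 FPKM in WT and 35.3, 29.6, 31.9 and 32.2 FPKM in 5A3+/del mice. The WT populations overlapped widely, whereas in 5A3+/del mice every CD150neg MPP library was below every CD150hi and CD150lo HSC library. Such a separation was seen for 7.42% (CD150hi HSC against CD150neg MPP) and 1.95% (CD150lo HSC against CD150neg MPP) of all genes.

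Tal1 was higher in CD150hi HSC than in CD150neg MPP of 5A3+/del mice (log2 difference 0.48, SE 0.13, 95% interval 0.21 to 0.75, adjusted p = 0.0220). This call was lost without 5A3+/del mouse 1 (adjusted p = 0.0846), 2 (0.154), 3 (0.0907) or 4 (0.0654), with median scaling (0.0569), without further normalization (0.0964) and in the fit of the compared groups only (0.0923). In WT mice the difference was 0.36 (SE 0.12, adjusted p = 0.0620), and it passed with the mouse as a block (adjusted p = 0.0401) and with a trend in the variance prior (0.0392). The genotypes did not differ detectably in this gap, with a difference between them of 0.12 (95% interval -0.25 to 0.49, adjusted p = 0.910). Tal1 was higher in CD150hi HSC than in CD150neg MPP in 9 of 9 mice.

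Lyl1 encodes the closest relative of TAL1, which can stand in for it in adult stem cells. Its level in CD150hi HSC was 41.4, 48.9, 35.3, 38.2 and 43.2 FPKM in WT mice and 59.4, 39.4, 42.1, 41.3 and 47.0 FPKM in 5A3+/del mice. In CD150lo HSC it was 59.2, 43.5, 33.4, 36.8 and 35.8 FPKM in WT and 44.2, 40.3, 37.8, 60.4 and 45.2 FPKM in 5A3+/del mice. In CD150neg MPP it was 51.2, 65.0, 44.5, 47.2 and 40.3 FPKM in WT and 77.9, 40.1, 51.8 and 47.8 FPKM in 5A3+/del mice. All groups overlapped, and 5A3+/del mouse 1 held the highest value in CD150neg MPP. The difference between CD150hi HSC and CD150neg MPP was -0.20 (SE 0.16, adjusted p = 0.515) in WT and -0.16 (SE 0.17, adjusted p = 0.740) in 5A3+/del mice, with CD150hi HSC lower in 8 of 9 mice.

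Between CD150hi HSC and CD150neg MPP the differences of Tal1 and Lyl1 had opposite signs, although Lyl1 was called in neither genotype. Their ratio within an animal differed between these populations. Which of the 2 genes moved the ratio was not tested, and apart from Erg with Fli1 no other pair was examined. The log2 ratio of Lyl1 to Tal1 (FPKM + 1) averaged -0.04 (SD 0.19) in CD150hi HSC and 0.58 (SD 0.24) in CD150neg MPP of the 9 mice. Within WT mice 1 to 5 the difference (CD150hi HSC minus CD150neg MPP) was -0.67, -0.60, -0.53, -0.43 and -0.57, and within 5A3+/del mice 1 to 4 it was -0.81, -0.66, -0.75 and -0.53. All 9 mice moved in the same direction, with a mean of -0.62 (SD 0.12). The exact sign-flip permutation test, 2-sided, gave p = 0.00391, the smallest that 9 pairs allow (adjusted over both ratios, p = 0.00781). CD150lo HSC lay between, at 0.17 (SD 0.10, n = 5) in WT and 0.21 (SD 0.23, n = 5) in 5A3+/del mice.

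**Figure D3:**
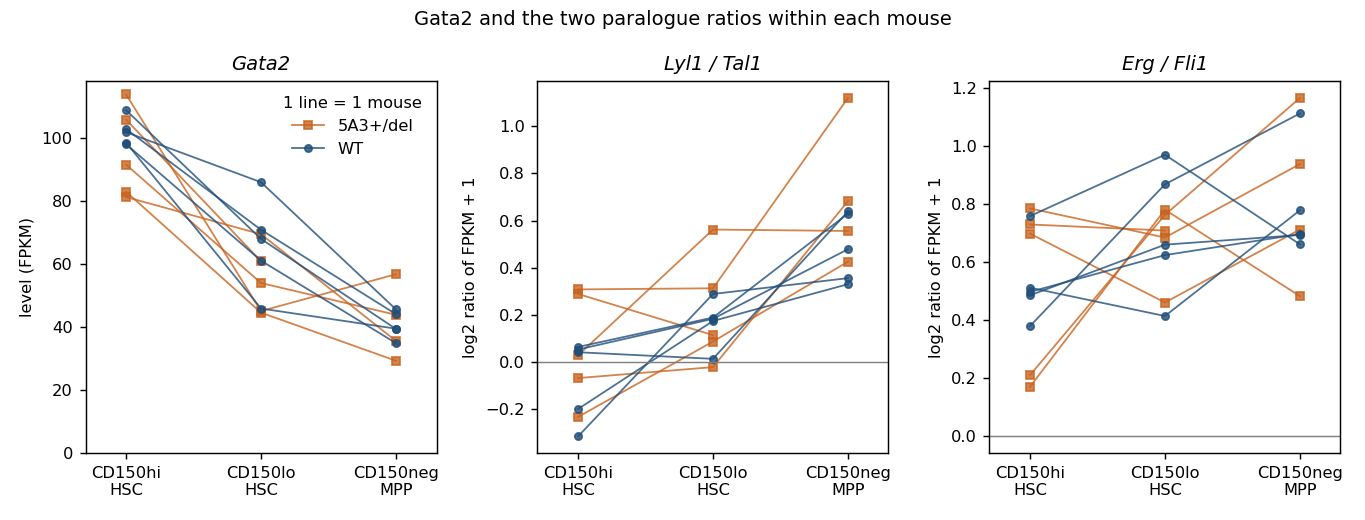
Gata2 level in FPKM (left) and the log2 ratios of Lyl1 to Tal1 (middle) and Erg to Fli1 (right), each computed on FPKM + 1, across the 3 populations (x axis). Each line joins the libraries of 1 mouse, circles for WT and squares for 5A3+/del. The Lyl1 to Tal1 ratio is higher in CD150neg MPP than in CD150hi HSC along all 9 complete lines, and the Erg to Fli1 ratio along 8.

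Lmo2 encodes the bridging protein of the complex and was the most abundant member. Its level in CD150hi HSC was 272, 247, 306, 358 and 288 FPKM in WT mice and 323, 434, 348, 400 and 304 FPKM in 5A3+/del mice. In CD150lo HSC it was 312, 282, 279, 389 and 429 FPKM in WT and 419, 447, 398, 317 and 300 FPKM in 5A3+/del mice. In CD150neg MPP it was 361, 380, 329, 433 and 406 FPKM in WT and 358, 435, 368 and 373 FPKM in 5A3+/del mice. WT CD150hi HSC held the lowest values, with 1 library reaching into the range of WT CD150neg MPP, whereas the 5A3+/del populations overlapped throughout.

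In WT mice, Lmo2 was lower in CD150hi HSC than in CD150neg MPP (log2 difference -0.53, SE 0.16, 95% interval -0.86 to -0.19, adjusted p = 0.0355). In 5A3+/del mice the difference was -0.07 (SE 0.17, 95% interval -0.42 to 0.28, adjusted p = 0.904). The difference between the genotypes in this gap was 0.46 (SE 0.23, 95% interval -0.02 to 0.94, adjusted p = 0.638), so the genotypes were not shown to differ. The WT call was lost with median scaling (-0.35, adjusted p = 0.135) and without further normalization (-0.38, 0.101). It was also lost without WT mouse 1 (adjusted p = 0.112), 2 (0.145), 4 (0.0546) or 5 (0.0692), and without 5A3+/del mouse 3 (0.0551). In 8 of 9 mice Lmo2 was lower in CD150hi HSC than in CD150neg MPP.

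Runx1 encodes the runt domain factor needed for blood stem cells to arise from endothelium. By FPKM it was the lowest and steadiest member. Its level in CD150hi HSC was 26.0, 38.4, 37.8, 28.6 and 31.6 FPKM in WT mice and 32.3, 30.4, 32.2, 26.9 and 28.1 FPKM in 5A3+/del mice. Over CD150lo HSC and CD150neg MPP of both genotypes it ranged from 23.7 to 31.0 FPKM. All groups overlapped. Runx1 was higher in CD150hi than in CD150lo HSC in 10 of 10 mice, a count with no share of all genes to set beside it. That difference was 0.28 (SE 0.10, adjusted p = 0.179) in WT and 0.14 (SE 0.10, adjusted p = 0.619) in 5A3+/del mice and did not pass. Against CD150neg MPP it was 0.23 (SE 0.10, adjusted p = 0.197) and 0.26 (SE 0.11, adjusted p = 0.212).

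Erg encodes an ETS factor required for stem cell self-renewal. Its level in CD150hi HSC was 74.5, 78.9, 70.2, 89.9 and 81.2 FPKM in WT mice and 81.3, 104, 118, 77.7 and 88.6 FPKM in 5A3+/del mice. In CD150lo HSC it ranged from 59.4 to 96.4 FPKM in WT and from 77.5 to 88.9 FPKM in 5A3+/del mice. In CD150neg MPP it was 90.1, 113, 77.1, 85.4 and 87.7 FPKM in WT and 133, 91.2, 86.7 and 75.9 FPKM in 5A3+/del mice. No population stood apart, and the largest difference was -0.28 (SE 0.15, adjusted p = 0.634) between CD150lo HSC and CD150neg MPP of WT mice. The highest library was again CD150neg MPP of 5A3+/del mouse 1.

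Fli1 encodes the ETS factor closest to ERG, also used by megakaryocytes and endothelium. Its level in CD150hi HSC was 52.9, 60.4, 48.9, 52.7 and 57.2 FPKM in WT mice and 70.1, 59.9, 72.3, 68.9 and 53.0 FPKM in 5A3+/del mice. In CD150lo HSC it was 37.2, 41.0, 46.1, 48.7 and 53.6 FPKM in WT and 47.3, 54.9, 58.4, 49.5 and 47.0 FPKM in 5A3+/del mice. In CD150neg MPP it ranged from 44.5 to 55.3 FPKM in WT and from 47.1 to 58.7 FPKM in 5A3+/del mice. Fli1 was higher in CD150hi than in CD150lo HSC of the same animal in 10 of 10 mice, with overlapping groups. The difference was 0.28 (SE 0.11, adjusted p = 0.233) in WT and 0.33 (SE 0.11, adjusted p = 0.132) in 5A3+/del mice. Against CD150neg MPP it was 0.10 (SE 0.11) and 0.34 (SE 0.12), and none of these passed.

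The log2 ratio of Erg to Fli1 averaged 0.50 (SD 0.22) in CD150hi HSC and 0.81 (SD 0.22) in CD150neg MPP of the 9 mice. Within WT mice 1 to 5 the difference was -0.21, -0.73, -0.27, 0.10 and -0.20, and within 5A3+/del mice 1 to 4 it was -0.96, -0.16, -0.01 and -0.31. The ratio was lower in CD150hi HSC in 8 of 9 mice, with a mean of -0.31 (SD 0.34) and widely differing sizes. The exact sign-flip permutation test, 2-sided, gave p = 0.0117 (adjusted over both ratios, p = 0.0117). Erg exceeded Fli1 in all 29 libraries.

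The comparison of genotypes asks whether the deletion alters the heptad in a given population. None of the 7 members was called in CD150hi HSC, CD150lo HSC or CD150neg MPP with limma, against 0.156%, 0.0324% and 0.0454% of all genes. At an unadjusted p under 0.05 there were 2 members in CD150hi HSC (13.1% of all genes) and 0 in CD150lo HSC (6.87%) and CD150neg MPP (4.27%). No member separated the genotypes without overlap, which occurred for 2.37%, 1.49% and 1.49% of all genes. The members' median difference (5A3+/del minus WT) was 0.14, 0.17 and -0.03 in the 3 populations, beside 0.00, 0.01 and 0.00 over all genes.

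The members with an unadjusted p under 0.05 were Lmo2 and Fli1 in CD150hi HSC. Lmo2 averaged 362 FPKM (SD 53.9, n = 5) in 5A3+/del and 294 FPKM (SD 41.7, n = 5) in WT mice, a log2 difference of 0.40 (SE 0.16, 95% interval 0.07 to 0.73, adjusted p = 0.275). Fli1 averaged 64.9 FPKM (SD 8.11) and 54.4 FPKM (SD 4.43), a difference of 0.25 (SE 0.11, 95% interval 0.02 to 0.48, adjusted p = 0.336). Erg differed by 0.28 (SE 0.15, adjusted p = 0.439) in the same cells, and Lmo2 by 0.30 (SE 0.16, adjusted p = 0.798) in CD150lo HSC. For Gata2 the difference was -0.05 (95% interval -0.36 to 0.26) in CD150hi HSC, -0.21 (-0.52 to 0.11) in CD150lo HSC and -0.03 (-0.36 to 0.30) in CD150neg MPP. With 4 or 5 mice per group, changes of Gata2 within these unadjusted intervals are not excluded. The intervals do not give the smallest change that the adjusted threshold would have called. Over the 21 differences, adjusted p was at least 0.275 and the range was -0.21 to 0.40.

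**Figure D4:**
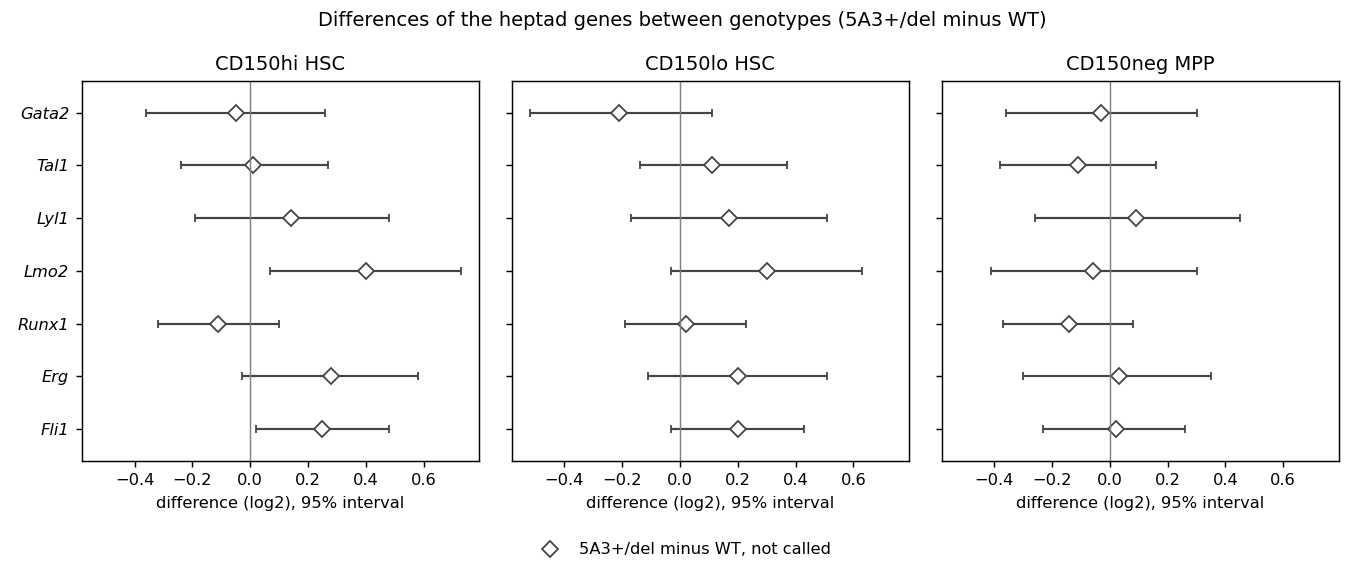
Differences between genotypes (5A3+/del minus WT, x axis, log2 of normalized FPKM + 1, with the same scale in each panel) for each heptad gene in the 3 populations. Whiskers are 95% intervals from the limma fit, and open symbols did not pass the adjusted threshold. No member passed, and the intervals of 2 members, Lmo2 and Fli1 in CD150hi HSC, do not reach 0.

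The paralogue ratios did not separate the genotypes either. The Lyl1 to Tal1 ratio differed by 0.14, 0.04 and 0.21 in CD150hi HSC, CD150lo HSC and CD150neg MPP, and the Erg to Fli1 ratio gave differences of -0.01, -0.03 and 0.04. Exact permutation tests, 2-sided, gave p between 0.206 and 0.937, all 0.937 after adjustment over the 6 comparisons. The genotype effect was also compared between populations for each member. No member and no gene at all was called (0.00% in each of the 3 comparisons), no member had an unadjusted p under 0.05 in limma (3.98%, 5.00% and 7.96% of all genes), and the members' values ranged from -0.18 to 0.46.

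Genes that work with the heptad were examined as 3 lists, namely proteins that partner with the factors, paralogues of the factors, and stem cell genes whose enhancers the factors are known to bind. All 16 partners and 13 bound genes passed the filter, as did 10 of 12 paralogues. Gata1 and Tal2, the erythroid and the lymphoid leukemia relatives of Gata2 and Tal1, were under it, at group means of at most 0.442 and 0.0270 FPKM. No listed gene was called between genotypes in any population with limma. At an unadjusted p under 0.05 there were 3 partners, 2 paralogues and 2 bound genes in CD150hi HSC, against 13.1% of all genes. The counts were 1, 1 and 2 in CD150lo HSC (6.87% of all genes), and 0 in CD150neg MPP (4.27%).

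Between CD150hi HSC and CD150neg MPP of WT mice, 4 partners, 2 paralogues and 5 bound genes were called higher, against 5.47% of all genes. In the same comparison 1 partner, 3 paralogues and 3 bound genes were called lower, against 4.58% of all genes. In 5A3+/del mice 4 partners, 0 paralogues and 6 bound genes were higher (3.23% of all genes) and 0, 2 and 3 were lower (2.93%). The list medians in WT mice were 0.11 for partners, -0.11 for paralogues and 0.34 for bound genes, beside -0.01 over all genes. Zfpm1 and Gfi1b stand in both the partner and the bound list.

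Of the partners, Gfi1b, a zinc finger repressor, was higher in CD150hi HSC of WT mice by 1.92 (SE 0.27, adjusted p = 1.88e-05), at 30.3 FPKM against 7.60 FPKM. Zfpm1, which encodes the GATA cofactor FOG1, was higher by 0.81 (SE 0.14, adjusted p = 0.000237), and Ldb2, a relative of the LIM-binding protein LDB1, by 1.24 (SE 0.25) from a low level of 0.171 to 2.05 FPKM. These 3 calls held under all 18 alternatives and in both genotypes. Id1, an inhibitor of helix-loop-helix proteins, was higher by 1.26 in each genotype (SE 0.32 and 0.33), which held under 17 (WT) and 13 (5A3+/del) of 18 alternatives. Cbfb, the partner of RUNX1, was lower in WT CD150hi HSC with a difference of -0.52 (SE 0.17, adjusted p = 0.0486), a call that held under 8 of 18 alternatives. The most abundant partners were Cbfa2t3 (50.3 to 59.8 FPKM by group mean), Cbfb (37.4 to 55.6), Ldb1 (30.6 to 36.3) and Tcf12 (23.4 to 26.4), and of these Cbfb alone was called in any comparison.

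Among the paralogues, the RUNX family split. Runx3 was lower in CD150hi HSC than in CD150neg MPP with a difference of -1.35 (SE 0.19, adjusted p = 1.13e-05) in WT and -1.22 (SE 0.20, adjusted p = 0.000131) in 5A3+/del mice, at 9.08 against 22.6 FPKM in the latter. Runx2 was lower with a difference of -0.96 (SE 0.12, adjusted p = 3.08e-06) and -0.71 (SE 0.13, adjusted p = 0.000483), while Runx1, given above, was not called. Gata3, the GATA factor of T cells, was higher in WT CD150hi HSC by 0.92 (SE 0.20, adjusted p = 0.00213), at 8.27 against 3.87 FPKM, and was at 0.66 (SE 0.21, adjusted p = 0.0555) in 5A3+/del mice. The ETS factors Ets2 (0.84, SE 0.20) and Elf1 (-0.51, SE 0.11) were called in opposite directions in WT mice and were at 0.51 (adjusted p = 0.176) and -0.33 (adjusted p = 0.0814) in 5A3+/del mice, and neither difference between genotypes was called. Etv6 was the most abundant paralogue at 82.0 to 97.9 FPKM and was called in no comparison, and Elf1, Runx2 and Gabpa followed it.

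Of the bound genes, Tek, the angiopoietin receptor, was higher in CD150hi HSC than in CD150neg MPP by 1.58 (SE 0.19, adjusted p = 1.06e-06) in WT and 1.54 (SE 0.20, adjusted p = 4.78e-06) in 5A3+/del mice. Mecom, which encodes EVI1, was higher by 0.87 (SE 0.12) and 0.89 (SE 0.12). Both held under all 18 alternatives in both genotypes. Meis1 was higher by 0.34 (SE 0.10, adjusted p = 0.0282) and 0.44 (SE 0.11), calls that held under 13 and 14 of 18 alternatives. Eng was called in 5A3+/del mice (0.55, SE 0.15, adjusted p = 0.0194, held under 13 of 18) and was at 0.34 (SE 0.14, adjusted p = 0.132) in WT mice, and the difference between genotypes was not called. Cd34 was lower with a difference of -2.30 (SE 0.16) and -1.82 (SE 0.17), and the myeloid regulators Gfi1 (-0.77 and -1.05) and Spi1, listed as Sfpi1 (-0.76 and -0.52), were lower as well. Of these, Gfi1 held under 17 and 18, and Sfpi1 under 18 and 11, of 18 alternatives. Kit, which was used to sort the cells, was not called (0.07, SE 0.14, and 0.14, SE 0.15), and neither was Nfe2, another of the most abundant bound genes (0.19, SE 0.14, and -0.14, SE 0.15).

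Listed genes also separated CD150hi from CD150lo HSC. In WT mice 4 partners and 4 bound genes were called higher in CD150hi HSC (2.07% of all genes), and 2 paralogues and 1 bound gene lower (1.46%). In 5A3+/del mice 3 partners, 1 paralogue and 5 bound genes were higher (1.81% of all genes), and 2 paralogues and 2 bound genes lower (1.37%). Runx3 was lower with a difference of -1.08 (SE 0.19) in each genotype and Cd34 with a difference of -1.79 (SE 0.16) in WT and -1.49 (SE 0.16) in 5A3+/del mice. Mecom was higher by 0.66 (SE 0.12) and 0.65 (SE 0.12). The calls of these 3 genes held under all 18 alternatives in both genotypes. Gfi1b, Zfpm1, Ldb2, Tek and, lower, Runx2 were also called in both genotypes, and their calls held under 11 to 18 of 18 alternatives. Id1 was called in WT mice (1.14, SE 0.32, 8 of 18), and Eng (0.56, SE 0.14, 14 of 18), Gata3 (0.74, SE 0.20, 12 of 18) and Gfi1 (-0.88, SE 0.20, 15 of 18) in 5A3+/del mice, with no difference between genotypes called. Between CD150lo HSC and CD150neg MPP no listed gene was called with limma. In WT mice 0 partners, 1 paralogue and 3 bound genes had an unadjusted p under 0.05 (8.75% of all genes), and in 5A3+/del mice 1 of each list (4.95%).

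**Figure D5:**
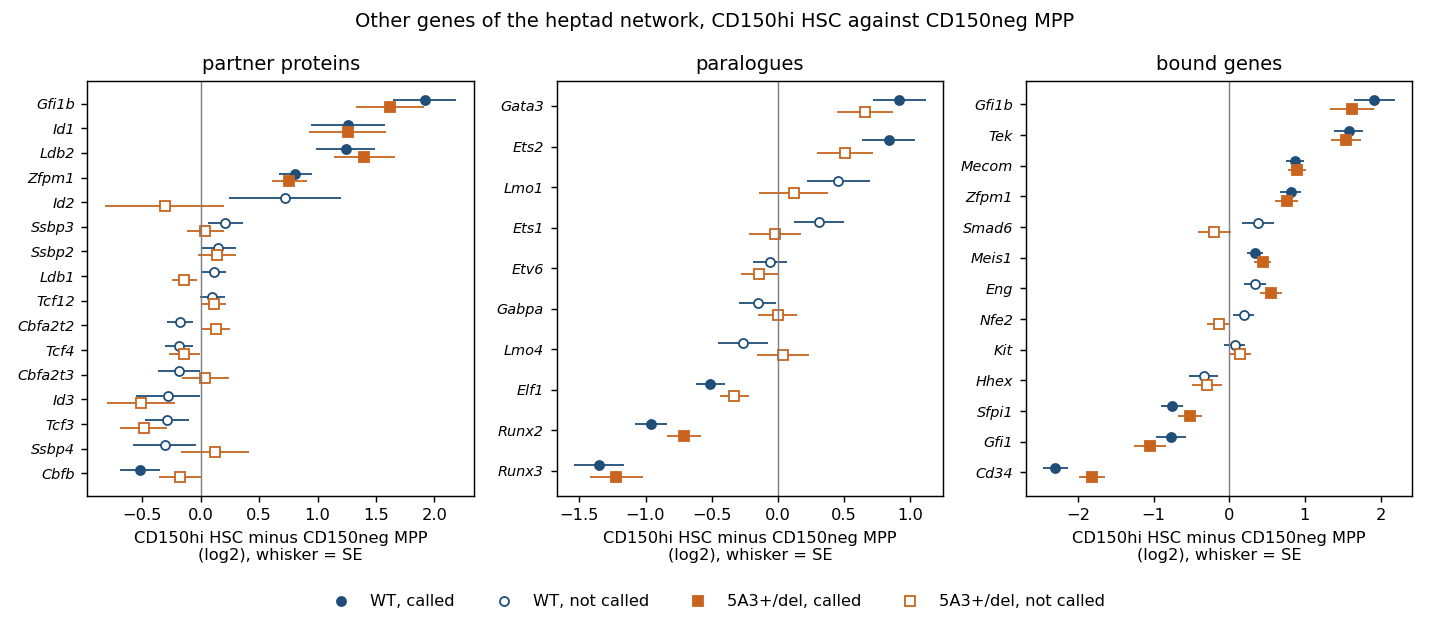
Differences between CD150hi HSC and CD150neg MPP (x axis, log2 of normalized FPKM + 1) for the partners, paralogues and bound genes of the heptad, ordered by the WT value. Circles are WT and squares 5A3+/del mice, whiskers are SE, and filled symbols passed the adjusted threshold. Runx2 and Runx3 are low in CD150hi HSC in both genotypes, and Gfi1b and Tek are high.

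The genes whose normalized log2 level across the 29 libraries was most like that of each member were found by Pearson's r, given here as a description, since the libraries share mice and populations. Gata2 was most like Trpc6 (r = 0.92), a calcium channel gene, and Socs2 (r = 0.92), an inhibitor of cytokine signaling, and among the heptad like Tal1 (r = 0.72). Trpc6 averaged 26.5, 14.5 and 10.2 FPKM in CD150hi HSC, CD150lo HSC and CD150neg MPP, and Socs2 5.83, 2.81 and 1.91 FPKM. Tal1 was most like Shank3 (0.83) and Lrrc8a (0.82), Lyl1 like Fmnl1 (0.71) and Sf3a2 (0.70), and Lmo2 like Cd47 (0.83) and Eltd1 (0.82). Runx1 was most like Meis1 (0.75), a bound gene, and 4732418C07Rik (0.71), Erg like Anxa9 (0.75) and Polk (0.69), and Fli1 like Gab2 (0.75) and the antisense gene Gm15860 (0.73). Within the heptad, the member most like Runx1 was Gata2 (0.56), Erg and Fli1 were each most like the other (0.51), and the member most like both Lmo2 (0.50) and Lyl1 (0.24) was Erg.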

How the data were processed

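RNA was amplified by the authors, sequenced as paired-end libraries, and the submitters' processing notes name Bowtie 0.12.2, HTSeq and mm9. The authors deposited FPKM values (fragments scaled to exon length and library depth) for 30025 genes in 29 libraries. Libraries were grouped by labelled genotype and cell type, and a mouse code in the labels pairs libraries of different populations (CD150neg cells are called HSC there). Genotypes share no animals, so replicate numbers pair nothing between them. From the deposited FPKM, the 15409 genes that reached 1 in 4 or more libraries were tested, log2(FPKM + 1) was quantile normalized and 6 group means were fitted with limma 3.58.1 (R 4.3.3), on moderated statistics with Benjamini-Hochberg adjustment. Folds and log2 differences are therefore on the log2(FPKM + 1) scale, which understates changes of low genes. The understatement is strong where a group lies under 1 FPKM, as for Ldb2 in CD150neg MPP. Alternatives were another pseudocount (0.1), no filter, other scalings, a variance trend, the compared groups only, age, a mouse block (within-mouse correlation 0.0793) and each mouse left out. Ratios were tested by exact permutation (scipy 1.17.1). Fragments were recovered from low FPKM values and exon lengths (GENCODE vM1, 97.52% of identifiers matched), of which 98.44% to 99.01% were whole within 0.05. Copies made by PCR could not be told from separate molecules.

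The members and lists were chosen with earlier results of these data known. Named were all members, each listed gene that passed or was among the 4 highest of its list, and the 2 genes most like each member. The fit was run on simulated data for a single comparison, CD150hi HSC minus CD150neg MPP in WT mice. The simulated libraries were independent, with no effect of the mouse. This run therefore does not bear on libraries that share a mouse or on the genotype comparisons. Some genes of the bound list are not reported here and are left out of its counts and medians.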

Additional observations from a re-analysis of the deposited data

Results flagged for a closer look

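In WT CD150neg MPP, the log2 ratio of Erg to Fli1 of replicate 2 was 1.11, while the other 4 libraries lay between 0.66 and 0.78, a gap of 0.739 of the group's range against a critical value of 0.710 for 5 libraries (Dixon's test). Of 54 groups examined, 1 was set apart in this way, and 2.7 are expected by chance at 1 in 20.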

How the results depend on the processing

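No member was called between genotypes, and none in the genotype-by-population comparisons, under any alternative. Of 1188 log2 differences of members, 1119 kept direction and side of the threshold, while 18 lost and 7 gained the call. The remaining 44 changed sign, to values between -0.12 and 0.12. The members called fell from 1 to 0 between CD150hi and CD150lo HSC of WT mice in the fit of compared groups (0 to 1 with a mouse left out). Between CD150hi HSC and CD150neg MPP they fell from 2 to 1 with median scaling and without further normalization in both genotypes, and in 5A3+/del mice also in the fit of compared groups (1 to 2 with a mouse left out, in each genotype). With the replicate block, or a variance trend, they went from 0 to 1 between CD150lo HSC and CD150neg MPP of WT mice (0 to 1 with a mouse left out). Apart from this Gata2 call and that of Tal1 given above, the block changed no member's call. For genotype differences, median scaling turned Gata2 and Lmo2 in CD150neg MPP to 0.01 and 0.03, and no further normalization turned Lmo2 to 0.01. For populations, median scaling turned Lyl1 (CD150hi minus CD150lo HSC, WT) to -0.02. In 5A3+/del mice, median scaling and no further normalization turned Lmo2 (-0.01 and -0.04) and Fli1 (-0.02 and -0.05) in CD150lo HSC minus CD150neg MPP, and Erg (-0.00 and -0.03) in CD150hi HSC minus CD150neg MPP.

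With a mouse left out, genotype differences ranged from -0.03 to 0.08 for Tal1 in CD150hi HSC, -0.02 to 0.08 for Runx1 in CD150lo HSC, and in CD150neg MPP from -0.17 to 0.12 for Gata2, -0.07 to 0.23 for Lyl1, -0.12 to 0.11 for Erg and -0.03 to 0.08 for Fli1. Population differences ranged for Lyl1 (CD150hi minus CD150lo HSC) from -0.02 to 0.13 (WT) and from -0.06 to 0.13 (5A3+/del). In 5A3+/del CD150lo HSC minus CD150neg MPP they ranged from -0.05 to 0.13 for Lmo2, -0.20 to 0.04 for Erg and -0.07 to 0.06 for Fli1, and for Erg in CD150hi HSC minus CD150neg MPP from -0.06 to 0.27. The genotype difference of Gata2 between CD150hi HSC and CD150neg MPP ranged from -0.13 to 0.07. Genotype differences of the Lyl1 to Tal1 ratio in CD150lo HSC ranged from -0.05 to 0.10, and of the Erg to Fli1 ratio from -0.07 to 0.08, -0.10 to 0.04 and -0.08 to 0.15 in the 3 populations. Within mice, the Lyl1 to Tal1 ratio stayed between -0.64 and -0.59 and the Erg to Fli1 ratio between -0.36 and -0.22. List counts under these alternatives, added after seeing the data, ranged in WT CD150hi HSC minus CD150neg MPP from 3 to 5 partners, 5 to 6 paralogues and 6 to 8 bound genes. All genes called there ranged from 1022 to 1776 (1548 as reported), and between genotypes in CD150hi HSC from 0 to 100 (24), in CD150lo HSC from 0 to 74 (5) and in CD150neg MPP from 0 to 8 (7). The cause of these changes was not tested.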
